A study of Mus musculus with 25 samples.

Results

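The spliceosomal and hnRNP genes examined here were 79 of the 24411 genes in each deposited table. They were selected by name alone, as symbols beginning with Srsf, Hnrnp, Sf3a, Sf3b, Snrp, Prpf, U2af, Rbfox or Celf, together with Nova1 and Nova2. They comprised 12 genes for proteins of the U small nuclear ribonucleoproteins (U snRNPs), 12 for SF3 and U2AF subunits, 13 PRPF factors, 11 SR proteins, 20 hnRNPs and 11 neuronal regulators of the Rbfox, Nova and Celf families.

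RNA from NeuN+ Hoechst+ nuclei, sorted from the hippocampus of male C57BL/6 mice, was sequenced in 3 experiments of 25 libraries in all. The aging experiment compared wild-type mice of 3 months (3 libraries) with wild-type mice of 18 months (2 libraries). In the overexpression experiment, mice of 3 months received lentivirus into CA1 and dentate gyrus that carried GFP (5 control libraries) or Ftl1 (7 libraries), both under the neuron-specific synapsin-1 promoter. In the knockdown experiment, mice of 18 months received a short hairpin RNA against luciferase (4 control libraries) or against Ftl1 (4 libraries), for which no neuron-specific promoter is stated. The tables were normalized separately, so levels were compared only within an experiment. Nothing in the labels ties a library to a litter or day, and p-values measure the spread between these libraries.

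Pre-mRNA splicing removes introns through the spliceosome, which is assembled from U snRNPs, each a small nuclear RNA carrying a ring of Sm proteins and a few particle-specific proteins. SF3 and U2AF proteins recognise the branch point and the end of the intron, and PRPF factors build and drive the tri-snRNP and the catalytic core. SR proteins mostly promote the use of nearby splice sites, hnRNPs often repress it, and Rbfox, Nova and Celf proteins set splicing choices that are characteristic of neurons. Rbfox3 encodes NeuN itself, the antigen used for sorting, so its presence was fixed by the sort.

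Recovered reads per library were 7969282 to 9537872 in the aging experiment, 9943996 to 17034325 in the overexpression experiment and 48902 to 358560 in the knockdown experiment. Ftl1 itself did not follow the labels of either virus experiment: its normalized count was 4737 to 7663 in libraries labelled Ftl1 OE and 4580 to 28310 in their controls, which overlapped, and 106 to 140 in libraries labelled Ftl1 KD against 24.2 to 56.2 in their controls (higher, adjusted p = 0.000223, limma). The groups are therefore called by their labels, and directions below are those of the labels. These Ftl1 counts are of RNA. By western blot, the study reports more hippocampal FTL1 protein after overexpression and less after knockdown. At the RNA level, Ftl1 is in the study's own list of genes decreased after overexpression and increased after knockdown and after neuronal knockout. Control library 9905 of the overexpression experiment stood apart, with a median normalized count over all genes of 1.35, and also held the 28310 for Ftl1. Control library 9926 had the next lowest median, 17.4, close to the 18.5 to 43.2 of the others. Of the marker lists, neuronal genes were abundant in every library (summed normalized count 25869 to 67095 in the aging and overexpression experiments), but astrocyte and oligodendrocyte markers were also present, at 3101 to 38296 and 2914 to 47563.

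Upstream sequence is shown for U snRNP genes whose levels were lower together in libraries labelled Ftl1 OE (below unadjusted p of 0.05). RefSeq gives promoter windows for 68 of the 79 genes, and only stretches that lie outside every exon of GENCODE M21 are printed, written 5′ to 3′ on the strand of the gene (GRCm38.p6). Of the 6 U snRNP genes under that p, Snrpg and Snrpd3 had no such stretch. The Snrpc stretch lies upstream of a RefSeq start but inside the GENCODE M21 gene (chr17:27838150-27851968), between its exons. Capitals mark a CCAAT box on either strand.
Snrpd2, chr7:19149602-19149721, + strand: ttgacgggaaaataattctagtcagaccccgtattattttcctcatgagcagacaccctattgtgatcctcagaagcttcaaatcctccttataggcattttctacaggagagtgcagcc
Snrpe, chr1:133610292-133610410, - strand: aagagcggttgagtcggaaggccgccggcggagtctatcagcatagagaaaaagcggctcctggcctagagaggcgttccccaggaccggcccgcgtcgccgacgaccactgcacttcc
Snrpf, chr10:93589771-93589890, - strand: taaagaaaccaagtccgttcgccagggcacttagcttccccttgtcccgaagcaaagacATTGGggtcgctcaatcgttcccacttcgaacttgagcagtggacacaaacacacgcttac
Snrpc, chr17:27839854-27839973, + strand: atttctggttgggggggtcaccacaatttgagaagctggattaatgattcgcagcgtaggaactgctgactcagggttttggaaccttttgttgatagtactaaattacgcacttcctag

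Across the full upstream windows and both strands, the GC box GGGCGG occurred in 46 of the 68 genes against 35.4% of all 27025 genes with a window. The ETS motif CCGGAAG occurred in 18 of the 68 against 7.83%, and the NRF1 motif GCGCNTGCG in 15 against 5.88%. CCAAT occurred in 32 against 37.5% and TATAAA in 8 against 14.3%. Among 10 U snRNP genes with a window, CCAAT was found in 4 (Snrpd3, Snrpf, Snrpg and Snrpn), the ETS motif in 3 (Snrpb2, Snrpc and Snrpg) and the GC box in 5. In all 7 motif strings were searched. After the counts were seen, the NRF1 motif was shortened from a form of 10 letters (13 of the 68 genes against 4.23% of all genes), and the CGCG element (0 of the 68 against 0.448%) was set aside; both are given by name only. Matches of different motifs may share bases, and a match is a description of the window. The background was every gene with a window, whether or not it was expressed here. Expressed genes alone were not searched, so the shares cannot be read as particular to splicing genes.

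Levels within young neuronal nuclei were ordered by normalized count per kb of exon, taken over all annotated exons of a gene together. For some genes this length exceeds the longest coding transcript, as for Sf3b1 (11370 against 6195 bases) and Hnrnpk (6466 against 2970). The order and separations given here hold for this length only, and another length was not tested. Snrpn, the neuronal paralog of the Sm protein gene Snrpb, stood first at 2857 ± 777 per kb (SD, n = 3), and its 3 libraries (1982 to 3466) did not overlap with those of any other gene of the set. Srsf7 and Srsf2, SR proteins, followed at 990 ± 172 and 985 ± 175 per kb and overlapped with each other. Sf3b1, the SF3 subunit that clasps the branch point helix, lay at 832 ± 80.2 per kb, overlapped with Srsf2 and was separated from the next gene, Hnrnpdl, at 456 ± 42.8 per kb. From Hnrnpdl through Hnrnpk (433), Celf1 (365), Rbfox1 (360) and Hnrnph1 (348), each neighbour overlapped with the next. Rbfox3 was the twelfth gene at 306 ± 4.17 per kb, a coefficient of variation of 1.36%. Snrpn also stood first, without overlap, in the controls of the overexpression experiment (7387 ± 849 per kb, n = 5) and of the knockdown experiment (11.3 to 27.7 per kb in 4 libraries). The coding sequences of Snrpb and Snrpn were identical at 80.5% of 696 aligned bases, with a longest shared run of 32 bases, and Snrpn shares exonic bases with Snurf on the same strand, so short reads could be split between these genes.

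**Figure D1:**
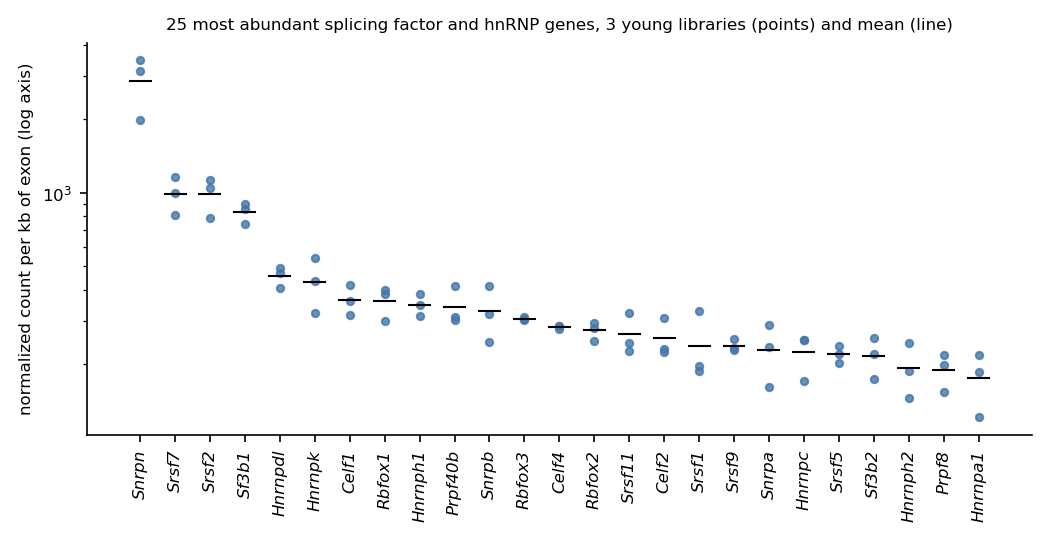
Normalized count per kb of exon (log axis) for the 25 genes with the highest mean in the 3 libraries of 3-month mice, with 1 point per library and a line at the mean. Snrpn (2857) lies above all others, and Rbfox3 (306) has the narrow spread given in the text.

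The aging comparison asked which of these genes differ between young and aged neuronal nuclei. None of the 79 passed the test (limma on log2(normalized count + 1), with an adjusted p up to 0.05 and a log2 change of 0.5 or more in size), as for all genes, of which 0% of 13712 passed. At 18 months 42 genes were higher and 37 lower, with a median log2 change of 0.04 against -0.03 over all genes tested. At an unadjusted p of 0.05 or less, 2 were higher (background 2.9%) and 3 lower (background 5.04%). Groups did not overlap for 25 genes, 10 higher and 15 lower, where the background over all genes was 24.7%. That background also applies to each separation between ages named below. edgeR called 0% of all genes and none of the 79, and DESeq2 called 1.01% of all genes and 1 of the 79, Prpf39.

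Prpf39, which encodes a factor associated with the U1 snRNP, was the gene furthest from no change among those lower at 18 months. Its normalized counts were 1272, 880 and 960 at 3 months and 482 and 412 at 18 months, so that both aged libraries lay below every young one. The log2 difference was -1.20 (SE 0.30, adjusted p = 0.441 in limma and 0.0190 in DESeq2), and leaving out single libraries gave -1.31 to -1.04. An exact permutation test over the 10 splits gave p = 0.1, the smallest that 3 against 2 libraries allow. Prpf39 (chr12:65036333-65063386, + strand) shares 599 exonic bases with Fkbp3 on the opposite strand, and strand use in the counting was not stated.

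Of the other PRPF genes, 8 of 13 in all were lower at 18 months (median log2 difference -0.14). Prpf38b was 922 ± 49.1 at 3 months and 649 ± 240 at 18 months (log2 difference -0.55, adjusted p = 0.666, limma), which was -0.94 without aged replicate 2 and -0.17 without aged replicate 3. Prpf4, a protein of the U4/U6 snRNP, was 425 ± 44.4 and 633 ± 119 (0.57, adjusted p = 0.668, limma), without overlap between groups, and 0.37 without aged replicate 3.

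SR proteins had a median log2 difference of -0.11, with 5 of 11 genes higher. Srsf2, an SR protein of nuclear speckles, had normalized counts of 3324, 2332 and 3088 at 3 months and 1508 and 1915 at 18 months (log2 difference -0.76, SE 0.28, adjusted p = 0.548, limma). Srsf7 had 3551, 2885 and 4103 at 3 months and 1732 and 2878 at 18 months (-0.64, SE 0.30, adjusted p = 0.641, limma), a difference that was -0.27 without aged replicate 2 and -1.01 without aged replicate 3. Both genes were lower in each aged library than in each young one, though for Srsf7 the nearest libraries lay at 2878 and 2885. Srsf2 shares 460 exonic bases with Mettl23 on the opposite strand. Srsf10 and Srsf12 were also below in both aged libraries.

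hnRNP genes had a median of -0.12, with 8 of 20 higher. Hnrnpl, whose protein binds CA-rich RNA, had normalized counts of 251, 201 and 198 at 3 months and 535 and 319 at 18 months (log2 difference 0.93, SE 0.40, adjusted p = 0.614, limma), which was 0.56 without aged replicate 2 and 1.31 without aged replicate 3. Hnrnph2, of the G-run-binding H/F family, had 631, 1064 and 819 at 3 months and 515 and 470 at 18 months (-0.73, SE 0.32, adjusted p = 0.614, limma). Hnrnpdl (2198 to 1665), Hnrnpu (1650 to 1282) and Hnrnpul2 (273 to 181) were lower in both aged libraries than in any young one, given here as means. The summed normalized count of all 20 was 16532 to 17047 at 3 months and 14926 to 15373 at 18 months.

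U snRNP and SF3/U2AF genes divided. Of U snRNP genes 9 of 12 were higher at 18 months, with a median of 0.29, and none reached an unadjusted p of 0.05. Snrpd2, of the Sm ring, had 99.6, 127 and 125 at 3 months and 176 and 209 at 18 months (log2 difference 0.71, SE 0.49, adjusted p = 0.724, limma), while Snrpn, which carried most of the counts of the group, had 4279, 7483 and 6742 against 5271 and 8161 and overlapped (0.13). Sf3b1 lay at 10224, 9704 and 8450 at 3 months and 8128 and 5481 at 18 months (-0.50, SE 0.29, adjusted p = 0.679, limma), and its difference was -0.78 without aged replicate 2 and -0.21 without aged replicate 3. U2af1, which reads the AG at the end of the intron, lay at 184, 194 and 197 against 312 and 297 (0.67, SE 0.40, adjusted p = 0.686, limma). Both of these had no overlap between groups, and in opposite directions.

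Neuronal regulators were higher at 18 months in 9 of 11 genes, with a median of 0.17. Celf6, a brain-enriched Celf protein, had normalized counts of 155, 212 and 132 at 3 months and 392 and 382 at 18 months (log2 difference 1.24, SE 0.42, adjusted p = 0.522, limma), and was the largest positive difference among the 79. Nova2, a KH-domain regulator of brain splicing, had 168, 171 and 266 against 401 and 284 (0.77, SE 0.42, adjusted p = 0.656, limma). Rbfox3 had 1767, 1807 and 1762 against 2960 and 1880 (0.41, SE 0.28, adjusted p = 0.725, limma), and without the first of these aged libraries the difference was 0.080. The direction for Celf2 (0.14), Celf3 (0.25), Celf4 (0.02) and Rbfox1 (0.17) turned when that same aged library (replicate 2) was left out, and Rbfox2 (-0.15) and Nova1 (-0.33) turned without aged replicate 3. Celf1 (0.17) and Celf5 (0.49) did not turn. None of the 11 passed the test, and groups did not overlap for Celf6, Nova2 and Rbfox3, where the background was 24.7% of all genes.

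The name rule left out related genes. Of 76 measured genes of the U snRNP and LSm, SR-like, RNA-binding and neuronal splicing lists, 33 were higher and 43 lower at 18 months, and none passed the test. The related neuronal splicing regulators were higher in 4 of 12 (median -0.34), and the related U snRNP and LSm genes in 16 of 21 (median 0.31). The genes with the smallest unadjusted p were Pcbp3 (585 to 238), the RNA helicase Ddx5 (8545 to 4762) and the SR-protein kinase Clk1 (4883 to 2810), with adjusted p of 0.441, 0.516 and 0.548 (limma). Marker sums overlapped between ages for every cell type list, with microglia at 314 to 515 and 265 to 465; Pecam1 was at 0 in every library.

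**Figure D2:**
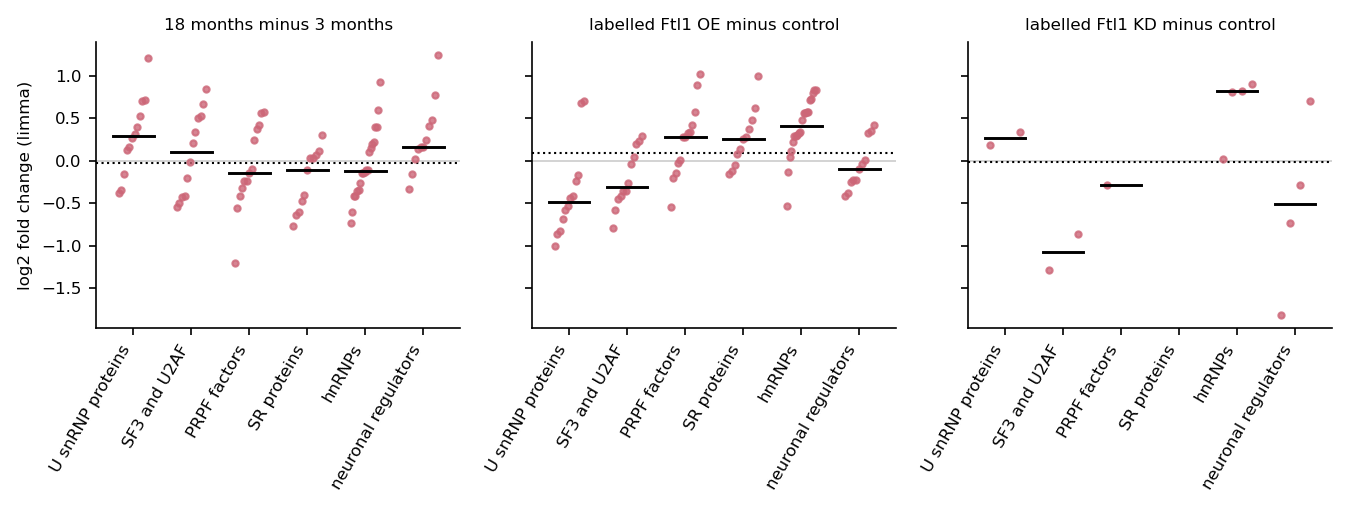
Log2 fold change (limma) of each tested gene, with 1 point per gene, by protein family in the aging, overexpression and knockdown experiments; thick lines are family medians and the dotted line is the median over all genes tested. In the overexpression experiment U snRNP genes (median -0.49) and hnRNP genes (median 0.41) lie on opposite sides of the dotted line; no SR protein gene could be tested in the knockdown experiment.

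The overexpression comparison asked whether these genes differ between libraries labelled Ftl1 OE and their GFP controls in young mice. None of the 79 genes passed the test, as for all genes (0% of 14099, limma), and edgeR also called 0% of genes. DESeq2 called 0.645% of all genes and 1 of the 79, Snrpd2 (adjusted p = 0.0395). The study's own DESeq2 comparison lists Snrpe, Snrpg and Snrpc as decreased at an adjusted p of 0.05 or less, so these calls differ between fits. At an unadjusted p of 0.05 or less, 5 of the 79 were higher (background 3.6%) and 8 lower (background 3.66%). Groups did not overlap for 3 of the 79, Snrpe, Snrpf and Snrpg, all lower, where the background was 0.582% of all genes. In all, 45 genes were higher and 34 lower, with a median log2 difference of 0.12 against 0.10 over all genes, of which 57.4% were higher.

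Genes of the Sm ring and the U1 snRNP were lower in libraries labelled Ftl1 OE: 10 of 12 U snRNP genes, with a median log2 difference of -0.49. The exceptions, Snrpa1 (0.70) and Snrpb2 (0.68), encode proteins specific to the U2 snRNP. Control libraries 9905 and 9926 were first left out, after the values were seen, because they had the lowest summed hnRNP level. That they also have the lowest median count over all genes was noticed later, so a change in hnRNP values without them follows in part from how they were chosen. Without both the U snRNP median was -0.28 and 11 of 12 were lower, Snrpb2 (0.14) being the exception and Snrpa1 turning to -0.11. The median over all genes then was -0.05.

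Snrpd2, an Sm ring gene, had control values of 1212 (library 9901), 958 (9904), 3411 (9905), 1533 (9925) and 2462 (9926) and labelled Ftl1 OE values of 658 to 1258 with a median of 740. The groups overlapped, since library 9904 lay below the highest labelled Ftl1 OE library. The log2 difference was -1.01 (SE 0.30, adjusted p = 0.499, limma), an exact permutation test over 792 splits gave p = 0.0126, and without libraries 9905 and 9926 the difference was -0.50 (SE 0.25, adjusted p = 0.839, limma).

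Snrpg, also of the Sm ring, had control values of 399, 478, 1037, 479 and 768 in the same library order and labelled Ftl1 OE values of 289 to 387 with a median of 340. Every labelled Ftl1 OE library lay below every control, including controls 9901, 9904 and 9925. For Snrpg, and for Snrpe and Snrpf below, this separation alone sets the permutation p. That p is therefore no separate support, and it is not adjusted for the number of genes. The log2 difference was -0.83 (SE 0.27, adjusted p = 0.535, limma; exact permutation p = 0.00126, the smallest that 5 against 7 libraries allow), and -0.43 without libraries 9905 and 9926.

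Snrpe, of the Sm ring, had control values of 519, 506, 683, 533 and 667 and labelled Ftl1 OE values of 381 to 443. These groups were also fully separated and both were narrow, at 582 ± 85.8 (SD, n = 5) and 399 ± 22.2 (SD, n = 7). The log2 difference was -0.53 (SE 0.21, adjusted p = 0.592, limma; exact permutation p = 0.00126), and -0.38 without libraries 9905 and 9926. Snrpe lies at chr1:133603871-133610291 on the - strand and none of its exons shares 50 or more bases with another gene.

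Snrpf, of the Sm ring, had control values of 229, 253, 526, 302 and 281 and labelled Ftl1 OE values of 123 to 215 with a median of 199. The gap between the groups was small against the spread, from 215 to 229. The log2 difference was -0.69 (SE 0.32, adjusted p = 0.672, limma; exact permutation p = 0.00126), and -0.46 without libraries 9905 and 9926. Snrpf (chr10:93583029-93589706, - strand) shares 567 exonic bases with Ccdc38 on the opposite strand.

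Snrpc, which encodes the U1-specific C protein, had control values of 508, 387, 767, 494 and 320 and labelled Ftl1 OE values of 201 to 356 with a median of 257. Only 1 control (9926) lay within the labelled Ftl1 OE range. Its log2 difference was -0.86 (SE 0.28, adjusted p = 0.541, limma) and moved least among these genes, to -0.81, without libraries 9905 and 9926. Snrpd3 of the Sm ring (880 ± 187 and 592 ± 123, log2 difference -0.58), Snrpa of the U1 snRNP (-0.44), Snrpb (-0.41), Snrpn (-0.23) and Snrpd1 (-0.17) were lower as well, with smaller separation.

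**Figure D3:**
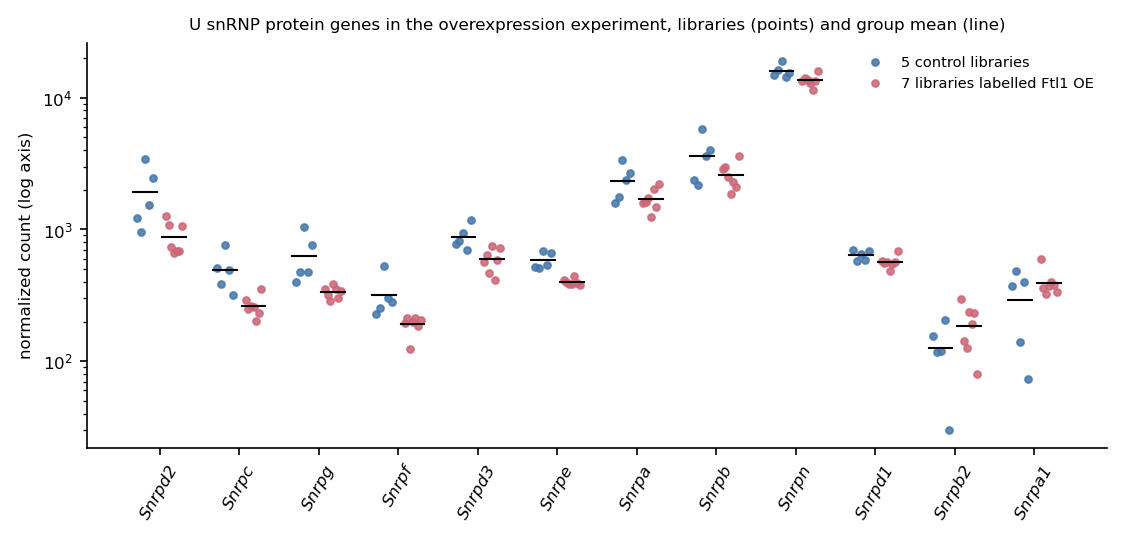
Normalized counts (log axis) of the 12 U snRNP genes in the 5 control libraries and the 7 libraries labelled Ftl1 OE, with a line at each group mean, ordered by log2 difference. Snrpe, Snrpf and Snrpg show no overlap between groups, and Snrpa1 and Snrpb2 at the right have the higher mean in libraries labelled Ftl1 OE.

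hnRNP genes lay on the other side: 18 of 20 were higher in libraries labelled Ftl1 OE, with a median log2 difference of 0.41. Hnrnpdl had control values of 1558, 1736, 572, 1095 and 888 and labelled Ftl1 OE values of 1093 to 2810 with a median of 1700 (log2 difference 0.73, SE 0.29, adjusted p = 0.619, limma). Hnrnpll, a paralog of Hnrnpl, was 388 ± 183 in controls and 640 ± 205 in libraries labelled Ftl1 OE (0.80, SE 0.34, adjusted p = 0.640, limma). Hnrnpa1 had control values of 409, 645, 484, 562 and 75.4, so that library 9926 alone carried most of its log2 difference of 0.83, which was 0.28 without that library.

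Control libraries 9905 and 9926 had the lowest hnRNP sums and were left out for that reason. A smaller hnRNP difference without them follows in part from that choice. The summed hnRNP count was 13790 in library 9905 and 13550 in library 9926, against 25928 to 34782 in the other controls and 20338 to 30200 in libraries labelled Ftl1 OE. Without both libraries 8 of 20 hnRNP genes were higher, with a median of -0.07, and Hnrnpk, whose log2 difference was 0.48, turned to -0.13. The summed U snRNP count was 36427 and 28486 in the same libraries, against 23816 to 25513 in the other controls and 19276 to 26037 in libraries labelled Ftl1 OE. The ratio of U snRNP to hnRNP counts was thus 2.64 and 2.10 in libraries 9905 and 9926, against 0.71 to 0.98 in the other controls and 0.65 to 1.28 in libraries labelled Ftl1 OE. As a share of reads, U snRNP genes took 0.2146% in library 9905 but 0.1886% in library 9926. The other controls held 0.1888% to 0.2016%, so the high U snRNP level of library 9926 was seen on the normalized scale only.

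**Figure D4:**
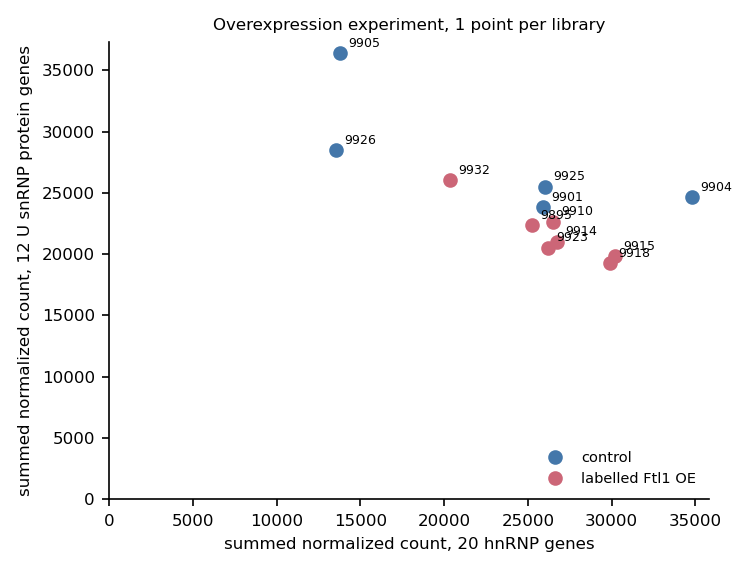
Summed normalized count of the 12 U snRNP genes against that of the 20 hnRNP genes, with 1 point per library of the overexpression experiment and both axes from 0. Control libraries 9905 and 9926 lie apart at the upper left, with the lowest hnRNP sums (13790 and 13550) and the highest U snRNP sums (36427 and 28486).

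Transcript length moved with these differences. The Spearman correlation across genes between the longest coding transcript and the log2 difference was 0.28 over the 79 genes and 0.25 over 13545 genes with a length, and genes are not independent replicates. U snRNP transcripts were short, with a median of 1204.5 bases against 2908.5 for hnRNPs. All genes under 1000 bases had a median log2 difference of -0.54, and the 3 U snRNP genes there (Snrpd1, Snrpe and Snrpf) -0.53. Between 1000 and 2000 bases the median was -0.17 for all 2177 genes and -0.63 for the 6 U snRNP genes. The part of length in the U snRNP values was not tested. The summed microglial markers were also lower in libraries labelled Ftl1 OE, at 729 to 2010 against 1689 to 4684 in controls, with none of 6 markers called, and the part of this difference in the U snRNP values was not tested. Fewer cells of a type and less RNA per cell cannot be told apart in such bulk nuclei.

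SF3 and U2AF genes were lower in 8 of 12 (median -0.31), and in 9 of 12 without libraries 9905 and 9926 (median -0.15). Sf3b5, a small SF3b subunit, had control values of 1389, 1285, 4499, 1653 and 3361 and labelled Ftl1 OE values of 990 to 1848 with a median of 1057 (log2 difference -0.79, SE 0.30, adjusted p = 0.592, limma), which became -0.21 without libraries 9905 and 9926. U2af1 was 890 ± 202 in controls and 593 ± 115 in libraries labelled Ftl1 OE (-0.58, SE 0.22, adjusted p = 0.592, limma), and -0.35 without them. Sf3b1 overlapped fully, at 3101 ± 1197 and 3484 ± 1084.

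PRPF and SR protein genes were mostly higher, in 9 of 13 (median 0.29) and 8 of 11 (median 0.26), where 57.4% of all genes were higher. Without libraries 9905 and 9926 this was 7 of 13 (median 0.032) and 5 of 11 (median -0.12). Prpf4 had control values of 474, 275, 283, 312 and 80.0 and labelled Ftl1 OE values of 393 to 719 with a median of 495 (log2 difference 1.02, SE 0.37, adjusted p = 0.574, limma), and 0.55 without libraries 9905 and 9926. Srsf2 was 1029 ± 686 and 1805 ± 609 (1.00, SE 0.39, adjusted p = 0.592, limma), and 0.32 without them. Srsf7 was 2106 ± 872 and 3164 ± 1122 (0.62, SE 0.29, adjusted p = 0.672, limma), and 0.19 without them.

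Neuronal regulators differed little, with 4 of 11 higher and a median of -0.10. Rbfox3 was 3752 ± 701 in controls and 3556 ± 932 in libraries labelled Ftl1 OE (log2 difference -0.10, SE 0.20, adjusted p = 0.905, limma). Rbfox1, the paralog that binds the same motif, was 2406 ± 877 and 1799 ± 455 (-0.38, SE 0.25, adjusted p = 0.717, limma), and its difference widened to -0.74 without libraries 9905 and 9926 (SE 0.23, adjusted p = 0.839, limma). Celf1, with the largest positive difference of the group (0.43), was at 0.022 without libraries 9905 and 9926, and Celf6, with the largest negative one (-0.42), was at -0.63. Rbfox2 (0.33), Nova1 (0.36), Nova2 (0.01), Celf2 (-0.04), Celf3 (-0.22), Celf4 (-0.25) and Celf5 (-0.22) did not pass the test either. Of 77 measured related genes, 44 were higher and 33 lower, with none called; the smallest unadjusted p were those of Lsm4 (1320 to 807), Snrnp25 (728 to 378) and Pcbp2 (984 to 720), all lower.

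The knockdown comparison asked whether these genes differ between libraries labelled Ftl1 KD and their controls in aged mice. Only 13 of the 79 genes reached a mean normalized count of 10 and were tested; the 66 others had 4 to 106 reads in all 8 libraries together. All 79 genes gave 235 to 1361 reads per library. Of the 13, Celf1 and Sf3b2 were lower and Hnrnpk was higher, 3 calls (limma) where the background was 24.2% of 1460 genes. DESeq2 called the same 3 genes (background 23.8%) and edgeR these and Sf3b1 (background 28.8%). At an unadjusted p of 0.05 or less 2 were higher (background 17.5%) and 3 lower (background 20.7%), and groups did not overlap for 3 (background 23.8%). The shares called were near those of all genes. The median log2 difference over the 13 was 0.02, against -0.01 over all genes.

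Celf1, which binds GU-rich RNA, had normalized counts of 25.5, 19.4, 18.7 and 25.9 in control replicates 1, 2, 3 and 5 and of 16.3, 1.80, 3.64 and 7.35 in the libraries labelled Ftl1 KD. These rested on 27, 48, 10 and 62 reads and on 17, 2, 2 and 5 reads. Every labelled Ftl1 KD library lay below every control, where groups did not overlap for 23.8% of all genes tested. The separation alone sets the permutation p, which is not adjusted for the number of genes. The log2 difference was -1.81 (SE 0.46, adjusted p = 0.00533, limma; exact permutation p = 0.0286, the smallest that 4 against 4 libraries allow). Celf1 lies at chr2:90940382-91019497 on the + strand.

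Sf3b2, a subunit of SF3b, had 42.5, 21.8, 20.6 and 37.6 in controls and 14.4, 15.3, 7.29 and 10.3 in libraries labelled Ftl1 KD, from 4 to 90 reads. The groups did not overlap, and the log2 difference was -1.28 (SE 0.34, adjusted p = 0.00677, limma). Sf3b1, the branch point subunit of the same complex, had 23.6, 30.7, 16.9 and 42.2 in controls and 14.4, 18.0, 18.2 and 8.82 in libraries labelled Ftl1 KD. It overlapped at control replicate 3 and did not pass the test (-0.86, SE 0.33, adjusted p = 0.0585, limma). Sf3b2 (chr19:5273932-5295455, - strand) shares 194 exonic bases with an antisense gene.

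Hnrnpk, which binds C-rich RNA and whose gene shares 330 exonic bases with Rmi1 on the opposite strand, had 28.3, 18.96, 24.3 and 12.1 in controls and 32.6, 42.4, 27.3 and 45.5 in libraries labelled Ftl1 KD. One control lay within the range of the other group, and the log2 difference was 0.83 (SE 0.30, adjusted p = 0.0441, limma). This call was lost when control replicate 2 or 5 or labelled Ftl1 KD replicate 1, 3 or 5 was left out (adjusted p = 0.0642 to 0.157, limma). Without control replicates 2 and 5 together, the 2 deepest libraries and chosen after the values were seen, none of the 13 was called, with log2 differences of -1.80 for Celf1 (adjusted p = 0.0891), -1.31 for Sf3b2 (0.0609) and 0.45 for Hnrnpk (0.348, all limma), where 119 genes in all were called.

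The other hnRNPs tested were also higher, Hnrnpa2b1 by only 0.02, and none passed. Their shared direction depends in part on the filter, which used the mean over both groups. Hnrnpc and Hnrnph1 had control means below 10 (9.85 and 7.26) and were tested only through their higher group. Untested hnRNPs lay on both sides, such as Hnrnpdl (11.1 in controls, 6.95 in libraries labelled Ftl1 KD) and Hnrnph2 (3.02 and 7.51). Hnrnpc, a core hnRNP that binds U-rich RNA, had 9.44, 8.07, 9.36 and 12.5 in controls and 16.3, 14.4, 20.04 and 27.9 in libraries labelled Ftl1 KD, without overlap (log2 difference 0.90, SE 0.35, adjusted p = 0.0585, limma). Hnrnph1 was 7.26 ± 2.75 and 13.2 ± 3.998 (0.81, adjusted p = 0.204, limma) and Hnrnpa2b1 was 11.5 ± 2.82 and 12.1 ± 4.98 (0.02). The summed count of all 20 hnRNPs was 80.7 to 137 in controls and 129 to 163 in libraries labelled Ftl1 KD. Snrpn was 50.2 ± 17.3 and 61.9 ± 15.1 (0.34), Snrpb 10.1 ± 2.30 and 12.4 ± 5.27 (0.19), and Prpf8, the largest protein of the catalytic core, 15.1 ± 6.19 and 12.3 ± 4.97 (-0.28).

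Neuronal regulators summed to 94.0 to 122 in controls and 66.1 to 79.6 in libraries labelled Ftl1 KD, without overlap. Beside Celf1, Celf4 was 11.9 ± 6.88 and 18.5 ± 5.77 (log2 difference 0.71, adjusted p = 0.191, limma), Rbfox2 12.9 ± 3.03 and 8.50 ± 5.89 (-0.73, adjusted p = 0.277, limma) and Celf2 18.8 ± 5.53 and 14.97 ± 2.22 (-0.28, adjusted p = 0.556, limma). No SR protein gene was tested, and their summed count was 46.8 to 86.8 in controls and 40.1 to 53.7 in libraries labelled Ftl1 KD. Of 12 related genes tested, 3 were called, all lower: Srrm2, a speckle scaffold (25.1 to 8.77), Ddx17, an RNA helicase (21.2 to 6.42), and Snrnp70 of the U1 snRNP (16.99 to 6.80).

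**Figure D5:**
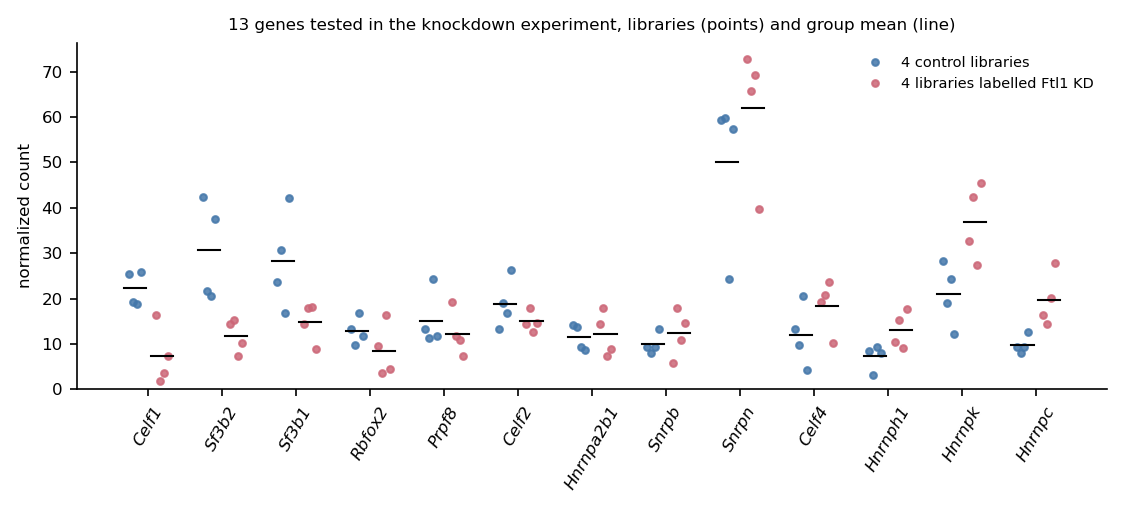
Normalized counts of the 13 genes tested in the knockdown experiment, in 4 control libraries and 4 libraries labelled Ftl1 KD, with a line at each group mean and an axis from 0. Celf1 and Sf3b2 at the left lie lower without overlap in libraries labelled Ftl1 KD, and Hnrnpk (control mean 20.9, labelled Ftl1 KD mean 37.0) lies higher.

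Other measures moved with the groups of the knockdown experiment. Summed nuclear long noncoding RNAs were 618 to 1234 in controls and 215 to 322 in libraries labelled Ftl1 KD, where 4 of 4 tested genes of that list were called lower. Summed oligodendrocyte markers were 36.8 to 93.6 and 10.9 to 21.6, and oligodendrocyte precursor markers, mostly Olig1, were 1.25 to 14.98 and 15.3 to 25.5. Summed neuronal markers overlapped, but of 4 tested genes of that list 1 was called higher and 1 lower. Within it, Gad1 was 4.18 to 19.76 in controls and 27.8 to 41.9 in libraries labelled Ftl1 KD, without overlap. Slc17a7 was 16.04 to 31.8 and 1.47 to 21.1, which overlapped. Astrocyte markers were 22.5 to 53.8 and 46.0 to 67.6, although Gfap of that list was 6.27 to 18.9 and 3.64 to 5.75, while Flt1 and Pecam1 of the endothelial list were at 0 in every library. The ribosomal transcript Rn45s took 49.4% to 55.3% of the reads in 3 controls and 30.3% to 34.5% in the fourth control and all libraries labelled Ftl1 KD. The part of these measures in the Celf1, Sf3b2 and Hnrnpk values was not tested. The correlation across genes between transcript length and log2 difference was -0.38 over 1423 genes and -0.55 over the 13, given as a description.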

How the data were processed

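Per the labels and the methods of the study, the authors aligned reads to mm10 with STAR, quantified genes with RSEM and normalized with DESeq2. The deposited tables hold normalized counts per library (a signal divided by a size factor), 1 table per experiment. Columns of the authors' own comparisons were not used. Labels and methods differ on the library kit, and strand use in counting was not stated. All values gave whole reads once the size factor of the library was removed (100% within 0.01), with 48902 to 17034325 per library.

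Genes with a mean of at least 10 in a table were tested with limma 3.58.1 (trend) on log2(normalized count + 1), with Benjamini-Hochberg adjustment over all genes of the table. Fold changes are on that scale and understate changes of low genes. edgeR 4.0.16 and DESeq2 1.42.0 on recovered reads, other pseudocounts, filters, scalings and left-out libraries were alternatives. The fits were tested on simulated data. Gene models were GENCODE M21. Named genes were those called, up to 8 per direction with the smallest unadjusted p, the neuronal regulators, the 8 most abundant per kb, those tested in the knockdown, and Snrpb and Snrpn. The genes and lists were chosen with earlier results of these data known.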

Additional observations from a re-analysis of the deposited data

Results flagged for a closer look

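Of 110 combinations of a gene or a family sum with a group, 10 held a library far from the others of its group, all for single genes. All 110 came from the overexpression and knockdown experiments. The aging groups had too few libraries for this rule and were not examined. Chance gives about 1 in 20 for a single combination, and these combinations are not independent. Library 9918, labelled Ftl1 OE, was the highest of its group for 4 neuronal regulators: Celf2 at 4984 normalized counts (others 1887 to 2724), Celf5 at 1187 (476 to 632), Nova1 at 523 (98.4 to 232) and Rbfox2 at 1140 (607 to 805). In the same group, Prpf4 was highest in library 9915 at 719 (393 to 527), Snrpa1 was highest in library 9895 at 593 (321 to 399) and Snrpf was lowest in library 9914 at 123 (186 to 215). Among the controls of that experiment, Snrpf was highest in library 9905 at 526 (229 to 302). In the knockdown experiment, control replicate 3 was highest for Prpf8 at 24.3 (11.3 to 13.2) and lowest for Snrpn at 24.3 (57.3 to 59.7).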

How the results depend on the processing

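Most single-gene values kept their direction and side of the threshold: 1201 stayed the same, 33 reversed, 12 fell short of the threshold and 6 newly passed it. A value that changed in size alone counted as the same, and most of these genes passed in no setting. Of the numbers of calls and the medians of all genes of the set or of a family, 318 stayed the same and 38 moved. In the aging experiment the median of all 79 genes was 0.080 with edgeR and 0.089 with DESeq2, which called 1 gene, and leaving out single libraries gave -0.015 to 0.099 and 0 called. Family medians without single libraries ran from -0.21 to 0.0079 (hnRNPs), -0.26 to 0.039 (PRPF), -0.090 to 0.27 (SF3 and U2AF), -0.35 to 0.027 (SR), 0.11 to 0.41 (U snRNP) and -0.017 to 0.36 (neuronal). In the overexpression experiment DESeq2 called 1 gene, and leaving out single libraries gave medians of 0.0062 to 0.18 (all), 0.20 to 0.62 (hnRNPs), 0.14 to 0.36 (PRPF), -0.35 to -0.21 (SF3 and U2AF), 0.058 to 0.52 (SR), -0.57 to -0.38 (U snRNP) and -0.21 to -0.037 (neuronal). Without control libraries 9905 and 9926, chosen after seeing the data for their low hnRNP sums, medians were -0.13 (all), -0.068 (hnRNPs) and -0.28 (U snRNP), and Celf3 (0.053), Hnrnpk (-0.13), Nova1 (-0.056), Sf3b1 (-0.17) and Snrpa1 (-0.11) reversed. Celf2 reversed with TMM scaling (0.012) and Nova2 with median centring (-0.082). Single left-out libraries moved Celf2 from -0.22 to 0.18 and Nova2 from -0.099 to 0.21 there, and in the aging experiment Celf2 from -0.079 to 0.36, Celf3 from -0.79 to 1.29, Celf4 from -0.049 to 0.097, Rbfox1 from -0.017 to 0.36, Rbfox2 from -0.48 to 0.17, Nova1 from -0.70 to 0.038 and Snrpn from -0.19 to 0.44. In the knockdown experiment the median was 0.17 with edgeR, 0.15 with DESeq2 and -0.24 to 0.21 without single libraries, which left 2 to 4 genes called; the hnRNP median was 0.32 with no filter, 0.46 without control replicates 2 and 5 (also added after seeing the data, 0 called) and 0.66 to 0.92 without single libraries, and the neuronal median was -0.57 to -0.21. Hnrnpa2b1 reversed without both controls (-0.013) and ran from -0.19 to 0.21 without single libraries, and Snrpb from -0.011 to 0.49. Hnrnpk also fell short with TMM scaling (adjusted p = 0.0603) and no filter (0.180), Sf3b1 passed with a pseudocount of 4 (0.0497) and Hnrnpc with median centring (0.0374, all limma). In the overexpression experiment, median centring moved the split from 45 higher and 34 lower to 40 and 39, and TMM scaling to 49 and 30. A filter at a mean of 100 left none of the 79 genes in the knockdown table. The cause of these shifts was not tested, and the knockdown depth left 66 genes untested.

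After group means were removed, same-numbered libraries correlated at -0.054 and 0.024 in the aging experiment. In the knockdown experiment they correlated at -0.034, -0.020 and -0.052. The deviations of 2 aged libraries mirror each other by construction, and the knockdown groups are small. The correlations therefore cannot decide whether replicate numbers pair the libraries. With the replicate number as a block, the aging medians were -0.063 (hnRNPs), -0.073 (PRPF), -0.090 (SF3 and U2AF) and 0.027 (SR), Snrpn reversed to -0.11, and the knockdown calls fell to 1, Celf1 (173 over all genes), with adjusted p of 0.0520 for Sf3b2 and 0.106 for Hnrnpk (limma). The overexpression groups share no replicate number.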
